A study of Oncorhynchus mykiss with 72 samples.

Results

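Among the features measured in redband trout gill, 70 rose strongly on day 1 at 28 °C in every strain, lost much of that rise by day 28 and stayed raised throughout. They were chosen from the deposited values by a rule with several conditions. A feature had to be listed in all 3 expression tables, to reach an overall mean of at least 5 and to have a median above 1 over the 12 libraries at 15 °C of each strain. Its heat effect, the 28 °C median minus the 15 °C median of log2(value + 0.5), had to be at least 1 in all 12 combinations of strain and day. The mean heat effect over the 3 strains also had to fall by at least 1 between day 1 and day 28. Of 23234 shared features, 16732 passed the level floors, 92 of those had the heat effect in all 12 combinations, and 70 also had the fall. The members were therefore 0.418% of the features that passed the floors. The heat effect and its fall chose the members, so both are described below without a test. Tests were kept for differences on which the rule set no condition, although its floors applied to the effects and levels that enter them.

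The series compared gill RNA of redband trout (Oncorhynchus mykiss) from Little Jacks Creek, a desert stream, from the F1 cross of the 2 strains (LJxK), and from Keithly Creek, a montane stream. Fish of each strain were sampled at 28 °C and at 15 °C on days 1, 3, 7 and 28, which gives 24 groups of 3 libraries. Each library pooled 3 RNA samples from one rearing tank, and p-values therefore measure the spread between such pools. The labels give no age for the fish.

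Warming above the range that a fish is used to unfolds proteins, and cells answer through heat shock factors, which bind promoters of chaperone genes within minutes and are later restrained by the chaperones they induce. The gill is the main site of gas and ion exchange and lies in direct contact with the water, which makes it one of the tissues in which this response is commonly followed. A transcript that is raised early and later settles at a lower but still raised level is a familiar pattern of prolonged warming. The deposited tables carry identifiers of assembled transcripts and do not pair them with gene names, so no function can be given to any member. A pair of members is named by identifier, g01823 for the highest day 1 value at 28 °C and g02206 for the largest fall. Other members are called by their place in the order of day 1 values at 28 °C. Values are not corrected for transcript length, and this order is one of deposited values and not of molecules.

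Recovered reads per library had a median of 6.43 M, where M stands for megareads, and a range of 0.276 M to 19.9 M, and the 3 shallowest libraries were F1 28 °C day 28 replicate 1, F1 15 °C day 3 replicate 1 and Keithly 15 °C day 28 replicate 1. On the first component of the within-group residuals, a further 7 libraries lay beyond the largest gap between library scores, at -64.3 or lower. These were, at 28 °C, Little Jacks day 1 replicate 1, Little Jacks day 7 replicate 3, Little Jacks day 28 replicate 3, F1 day 28 replicate 2 and Keithly day 28 replicate 3, and, at 15 °C, F1 day 28 replicate 2 and Keithly day 28 replicate 2. They are called the deviating libraries below. Scores on the other side ran up to 82.8, in F1 15 °C day 28 replicate 3, without such a gap, and those libraries were not set apart. In bulk RNA, more transcript per cell and more cells of a transcribing type cannot be told apart.

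Over the 70 members the mean heat effect of the strains had a median of 4.51 on day 1, 2.66 on day 3, 2.47 on day 7 and 1.95 on day 28, all on the log2 scale. The median fold between temperatures was 22.7 on day 1 and 3.86 on day 28. The lowest and the highest member stood at 2.39 and 11.58 on day 1, and at 1.14 and 8.52 on day 28. Most of the fall came early. The largest step down lay between day 1 and day 3 in 65 members, between day 3 and day 7 in 4 and between day 7 and day 28 in 1. By day 3 the median member had completed 73.1% of its fall in log2 units, with a range of 25.8% to 147%, where a value over 100% marks a member that was lower on day 3 than on day 28. The mean heat effect went down at every step in 42 members.

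In the median over members, the fall lay in the 28 °C libraries. Between day 1 and day 28 the log2 value at 28 °C changed by a median of -2.49, with a range of -5.64 to -0.58. At 15 °C the median change was -0.09, with a range of -1.05 to 0.78. In the member 70th by day 1 value the change was -0.58 at 28 °C and 0.56 at 15 °C, so both temperatures entered its fall. A fall of at least 1 was present in 69 members in Little Jacks, in 67 in F1 fish and in 65 in Keithly. The rule asked for this fall in the mean of the strains, which these values make up, so the counts describe its outcome. With reads scaled to the plain column total the median fall was 1.70 and the median day 1 heat effect was 3.72, and 46 features met the rule, of which 43 were among the 70.

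**Figure D1:**
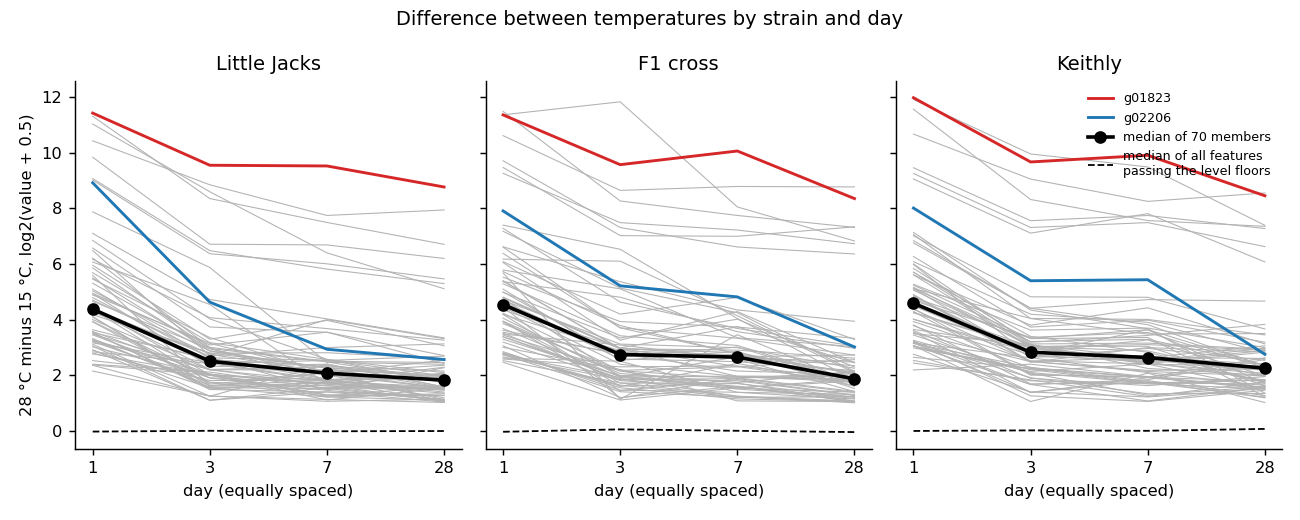
The heat effect (28 °C minus 15 °C, log2 of value + 0.5) is plotted against day for each of the 70 members (grey), g01823 (red) and g02206 (blue), with the median of the members (black points) and of all 16732 features that passed the level floors (dashed), by strain. The members' medians start between 4.38 and 4.59 on day 1 and end between 1.82 and 2.25 on day 28, while the dashed line stays between -0.04 and 0.07.

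g01823 had the highest value of all members at 28 °C on day 1. On day 1 it had 127239, 245693 and 211641 in the 28 °C libraries of Little Jacks, against 130.6, 76.9 and 63.5 at 15 °C. In the F1 cross the day 1 values were 354095, 216166 and 231653 at 28 °C, against 108.8, 88.1 and 84.7 at 15 °C. In Keithly they were 174449, 329602 and 314385 at 28 °C, against 124.9, 78.0 and 76.9 at 15 °C. Every warm library lay far above every cool one in each strain, and the ranges of the strains overlapped at both temperatures. On day 28 g01823 had 18628, 22724 and 7997 at 28 °C in Little Jacks, against 39.7, 47.4 and 42.4 at 15 °C. In the F1 cross it had 32891, 5998 and 26540 at 28 °C on day 28, against 81.1, 208.0 and 60.0 at 15 °C. In Keithly it had 17355, 39395 and 22730 at 28 °C on day 28, against 49.3, 99.7 and 64.6 at 15 °C. The lowest warm library of that day in the F1 cross and in Little Jacks was a deviating one, and even so it stood far above every cool library. The mean heat effect of g01823 was 11.58 on day 1, 9.59 on day 3, 9.82 on day 7 and 8.52 on day 28. It thus fell by 3.06, which was the 19th largest fall, and it kept the largest mean heat effect of all members on day 28. By strain, the member 2nd by day 1 value was higher on day 28 in the F1 cross (8.76 against 8.35) and in Keithly (8.55 against 8.45). It was lower than g01823 in Little Jacks (7.94 against 8.76).

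g02206 had the largest fall, 5.50 on the log2 scale. On day 1 it had 811.4, 1626 and 2052 at 28 °C in Little Jacks, against 3.29, 2.41 and 2.87 at 15 °C. In the F1 cross it had 1952, 1391 and 1808 at 28 °C on day 1, against 7.06, 6.77 and 7.37 at 15 °C. In Keithly it had 1569, 1948 and 1912 at 28 °C on day 1, against 13.8, 6.94 and 4.38 at 15 °C. By day 28 the temperatures had drawn together. The day 28 values were 19.5, 28.7 and 32.3 at 28 °C in Little Jacks, against 1.56, 4.43 and 4.55 at 15 °C. In the F1 cross they were 89.5, 18.9 and 33.7 at 28 °C, against 3.73, 17.6 and 1.09 at 15 °C. In Keithly they were 44.0, 84.2 and 45.1 at 28 °C, against 3.08, 8.86 and 6.27 at 15 °C. No group overlapped its cool counterpart on that day, and the closest pair was the lowest warm and the highest cool F1 library, both of them deviating. The cool values rest on few reads, such as 1 read behind 3.08 in the smallest Keithly library.

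**Figure D2:**
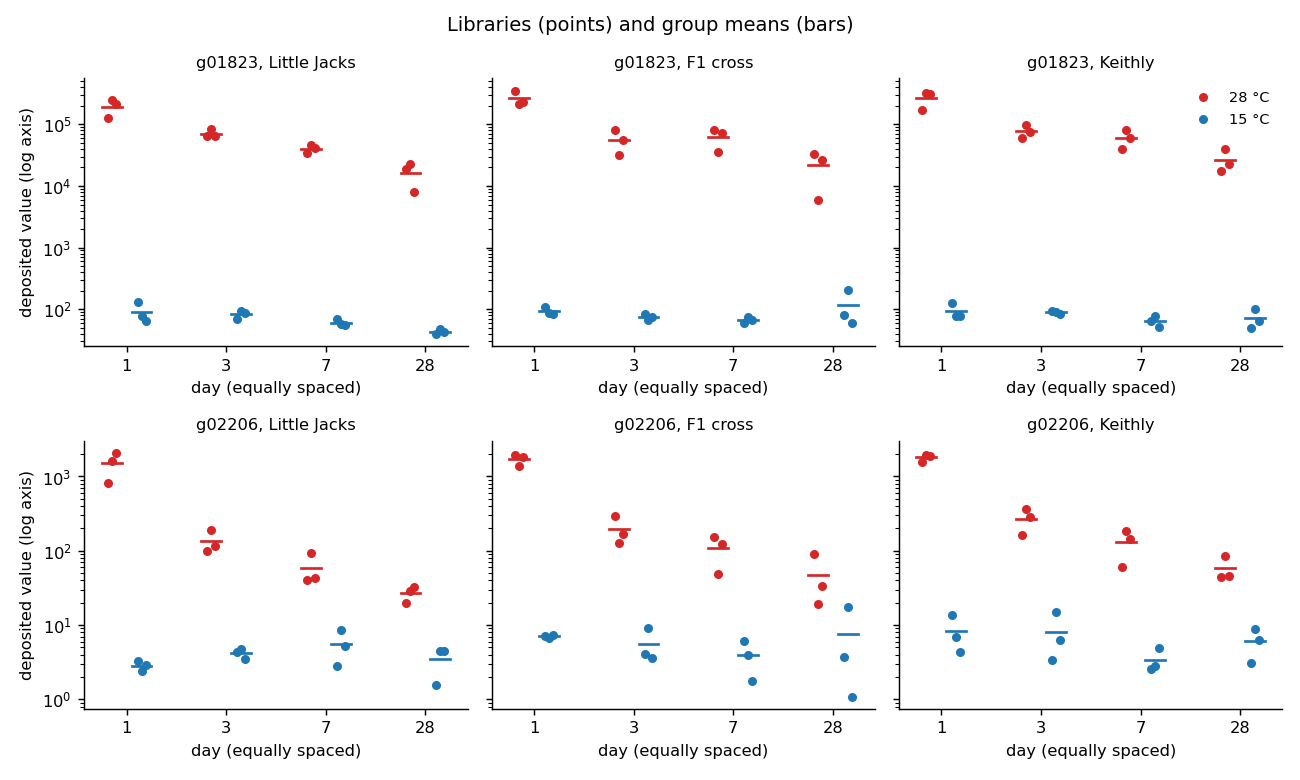
Deposited values of g01823 (top) and g02206 (bottom) are shown for each library (points) with group means (bars) by day on a log axis, 28 °C in red and 15 °C in blue, by strain. Both features stay higher at 28 °C on each day, and g02206 approaches its 15 °C values most closely on day 28.

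By size of the day 1 response, 15 members had a mean heat effect of at least 6, 29 had one from 4 to 6, and 26 had one under 4. Their median heat effects on day 28 were 3.39, 2.08 and 1.44 in that order. The class medians on day 28 thus kept the order of day 1. The classes overlapped on day 28, with ranges of 1.76 to 8.52, 1.45 to 3.22 and 1.14 to 2.43. Across the 70 members the day 1 and day 28 effects had a Pearson r of 0.90 and a Spearman rho of 0.83. The median day 28 values at 28 °C kept the order of the classes too, at 352.6, 56.2 and 50.0. The share of the linear rise that was left ran the other way. The share of the day 1 excess (28 °C value minus 15 °C value) that was left on day 28 had a median of 7.20% in the first class, 10.9% in the second and 23.3% in the third. Over all members this share had a median of 13.7% and a range of 1.75% to 47.7%. The rule's floor on the day 28 effect also sets a lower limit on this share. That limit is higher where the day 1 effect is small, so part of this order follows from the rule. The lowest shares in the 3 classes were 1.75%, 3.59% and 13.8%. The 15 °C level of a member bore little relation to its day 1 effect, with r = -0.11 across the 70. These correlations are descriptions of a selected list whose points share the same libraries.

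The strains ranked the members alike. On day 1 the heat effects of Little Jacks and Keithly, from separate libraries and tables, had a Spearman rho of 0.96 across the 70 members, and on day 28 one of 0.74. The rule set a floor on these same effects in each strain, which left out features raised in only one of them. Both values therefore describe the selected list. The quartiles of the mean heat effect lay at 3.34 and 5.74 on day 1 and, closer to the floor that the rule set, at 1.54 and 2.65 on day 28.

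Their rise took a large part of the sequenced reads. The shares below are of the recovered reads of the 23234 features listed in all 3 tables. On day 1 at 28 °C the 70 members held 24.0 ± 7.89% of recovered reads in Little Jacks, 31.6 ± 3.60% in F1 fish and 31.3 ± 5.00% in Keithly (SD, n = 3 each). Without the deviating library the Little Jacks mean was 28.4% (n = 2). At 15 °C the same members held 0.263% to 0.378% in all 36 libraries, with a median of 0.315%. Their share at 28 °C was then 10.4% in Little Jacks, 9.68% in F1 fish and 11.8% in Keithly on day 3, and 6.15%, 9.75% and 9.91% in the same order on day 7. On day 28 it was 3.24 ± 1.88%, 4.35 ± 2.66% and 5.23 ± 2.09% (SD, n = 3 each), and without the deviating libraries 4.29, 5.81 and 5.79% (n = 2 each). The F1 libraries left in that last mean included replicate 1, at only 0.455 M reads. The single feature g01823 made up the larger part of the day 1 share, and the other members together held 11.0% of reads in Little Jacks, 12.9% in F1 fish and 13.3% in Keithly.

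Among all 23234 features, 7 members were among the 10 highest values at 28 °C on day 1, 20 among the 100 highest and 51 among the 1000 highest. On day 28 these counts at 28 °C were 2, 6 and 28. At 15 °C no member was among the 100 highest on any day, and 4 or 5 were among the 1000 highest.

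**Figure D3:**
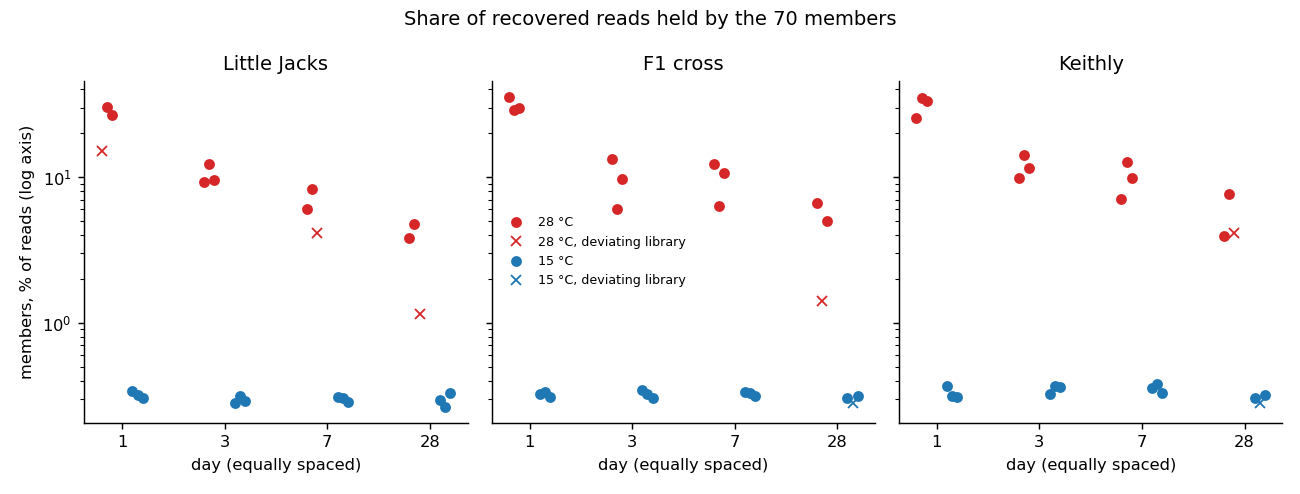
The percentage of recovered reads of the shared features held by the 70 members is shown per library on a log axis by day, by strain. Libraries at 28 °C are red and those at 15 °C blue, with crosses for the deviating libraries. Warm libraries lie lower on day 28, at 1.14% to 7.64%, than on day 1, without a fall at every step. All cool libraries lie between 0.263% and 0.378%.

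In most members the temperatures did not overlap in any library of a strain, over all 4 days. Every 28 °C library was above every 15 °C library in 60 of 70 members in Little Jacks, where 1.29% of the features passing the floors did the same. The counts were 56 members in the F1 cross, against 1.28% of features, and 65 in Keithly, against 2.00%. In all 3 strains at once it held for 47 members, against 0.496% of features. The rule used these values, and the counts describe its outcome. In all 14 overlapping members in the F1 cross, the lowest warm value was that of the deviating library of day 28, replicate 2, while the highest cool values were spread over 7 libraries. In 8 of the 10 in Little Jacks the lowest warm value was that of day 28, replicate 3. Without the 7 deviating libraries the separation held for 68 members in Little Jacks fish, 66 in F1 fish, 65 in Keithly fish and 62 in all 3 strains. The shares of the features passing the floors were then 2.97%, 2.21%, 2.35% and 1.05% in the same order. With fewer libraries the separation was thus met by more features in general. The member 5th by day 1 value reached 2306 in one 15 °C F1 library, against a mean of strain medians of 208.6 at 15 °C on day 28.

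The members also moved together among the replicate libraries of a group, which the rule did not use. At 28 °C, 23 of 36 libraries had at least 60 of the 70 members on one side of the mean of their 2 group mates, 11 with the members below and 12 above. At 15 °C this was so in 0 of 36 libraries. The features that passed the floors, taken all at once, were not as lopsided. Between 41.0% and 60.2% of those features lay below the group mates in the 28 °C libraries, and between 37.1% and 62.0% in the 15 °C libraries. No library had as lopsided a share of them at either temperature. Scaling each library limits how far such a share can move. Whether other features raised at 28 °C moved with the members was not tested. The median deviation of the members from their group mates ran from -0.78 to 0.56 log2 units over the 28 °C libraries and from -0.34 to 0.29 over the 15 °C libraries. Of the 23 libraries, 3 were deviating ones, so 20 were not. The median replicate SD of a single member was 0.397 log2 units at 28 °C and 0.395 at 15 °C, and over the features that passed the floors it was 0.368 at 28 °C and 0.379 at 15 °C. The deviations within a group of 3 are tied to each other, and the counts are a description with no test. The value of 60 was chosen after the deviations were seen.

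**Figure D4:**
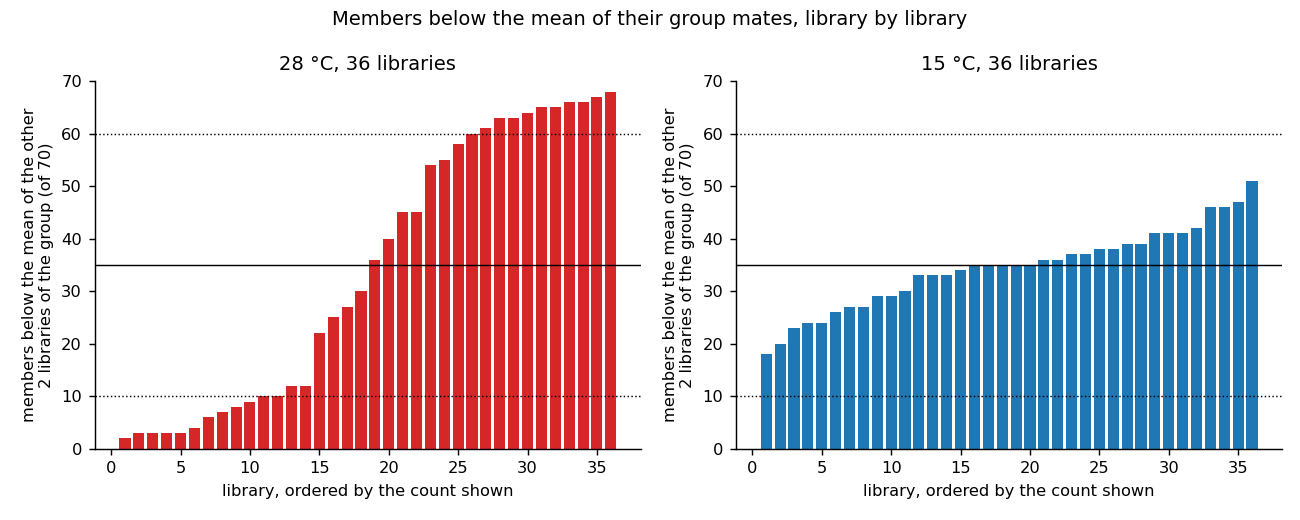
For each of the 36 libraries at 28 °C (left) and at 15 °C (right), the bar gives how many of the 70 members lay below the mean of the other 2 libraries of its group, in the order of that count, with a solid line at 35 and dotted lines at 10 and 60. At 28 °C, 23 libraries reach or pass a dotted line, and at 15 °C none does.

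The heat effect was then compared between strains with limma across all 23234 features and Benjamini-Hochberg adjustment. limma takes the heat effect from group means of log2(value + 0.5), where the rule and the effects given by day take medians. Its differences can therefore depart from those between the effects given by day. The rule set no condition on the difference between strains, although its floor applied to the heat effect of each strain on each day. A member is said to be called where the adjusted p was under 0.05. In Little Jacks minus Keithly, averaged over the 4 days, 5 of 70 members were called lower in Little Jacks and 0 higher, where 1.34% of all features were called lower and 0.895% higher. At an unadjusted p under 0.05 there were 27 members, against 15.1% of all features. The quasi-likelihood test of edgeR, run on recovered whole reads, called 7 members, all lower, where it called 2.04% of all features lower and 3.30% higher. The members' differences had a median of -0.34 and lay below 0 in 63 of 70, against a median of -0.04 and 54.4% below 0 over all features. Without the 7 deviating libraries, of which 3 were warm Little Jacks libraries, the members' median was -0.25 with 55 of 70 below 0, against -0.06 and 57.3% over all features. With the deviating libraries kept in, the members' median lay below 0 on each day, here by the heat effects taken from medians. The median of Little Jacks minus Keithly was -0.15 on day 1, -0.29 on day 3, -0.52 on day 7 and -0.42 on day 28, with 49, 53, 55 and 55 of the 70 members below 0. Over the features that passed the floors the medians on these days were -0.05, -0.01, -0.01 and -0.08, with 53.8%, 51.2%, 51.3% and 57.0% below 0. The members moved together among replicate libraries, so a shift in a single library can move most of them. The counts of members below 0 are therefore not separate observations.

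The largest of the called differences was that of the member 7th by day 1 value, at -1.63 (SE 0.40, limma adjusted p = 0.0139). On day 7 this member had 216.0, 639.5 and 265.5 at 28 °C in Little Jacks, against 2.66, 3.47 and 1.57 at 15 °C. In Keithly it had 516.7, 1682 and 1396 at 28 °C on day 7, against 1.37, 1.66 and 1.45 at 15 °C. Of the 3 warm Keithly libraries, 2 were above all 3 of Little Jacks, although the tables were scaled separately. Its heat effect over days 1, 3, 7 and 28 was 11.02, 8.59, 6.40 and 5.11 in Little Jacks, as against 11.90, 9.95, 9.48 and 7.38 in Keithly. The effect thus stayed higher in Keithly on every day, with the widest gap on day 7. Its 15 °C values are low, with 3 reads or fewer in 4 of the 36 cool libraries, and with a pseudocount of 0.1 its adjusted p was 0.0538 by limma.

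The member 42nd by day 1 value differed by -0.87 (SE 0.20, limma adjusted p = 0.0101) and kept its call under each alternative and with each library left out. On day 7 it had 82.3, 104.4 and 79.4 at 28 °C in Little Jacks, against 35.1, 38.0 and 23.0 at 15 °C. In Keithly it had 106.2, 171.9 and 150.6 at 28 °C on day 7, against 20.1, 15.6 and 25.8 at 15 °C. The warm values were higher in Keithly and the cool values mostly lower, without overlap between temperatures in either strain. Its heat effect over days 1, 3, 7 and 28 was 3.27, 2.03, 1.22 and 1.34 in Little Jacks fish, as against 3.65, 3.03, 2.87 and 1.97 in Keithly fish. The other called members were the 4th (-0.99, SE 0.28), the 43rd (-0.94, SE 0.24) and the 15th (-0.59, SE 0.17), with limma adjusted p-values of 0.0418, 0.0211 and 0.0453. With one library left out at a time, the 4th lost its call in 25 of 72 fits and the 15th in 30, and the count of called members ran from 3 to 8. The calls over all features moved as well. Without Little Jacks 28 °C day 1 replicate 1 they were 193 higher and 258 lower, with 3 members called. Without replicate 3 of that group they were 248 and 375, with 6 members called. With a pseudocount of 5 limma called 8 members, all lower, against 1.78% of features lower and 1.03% higher. With reads scaled to the column total it called 3, all lower, against 0.650% lower and 0.430% higher. Without the 7 deviating libraries 3 members were called, all lower, against 1.29% of features lower and 1.24% higher, and the 43rd and the 15th then had limma adjusted p-values of 0.0563 and 0.0703. g01823 (-0.23, SE 0.30) and g02206 (-0.35, SE 0.40) were not called.

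**Figure D5:**
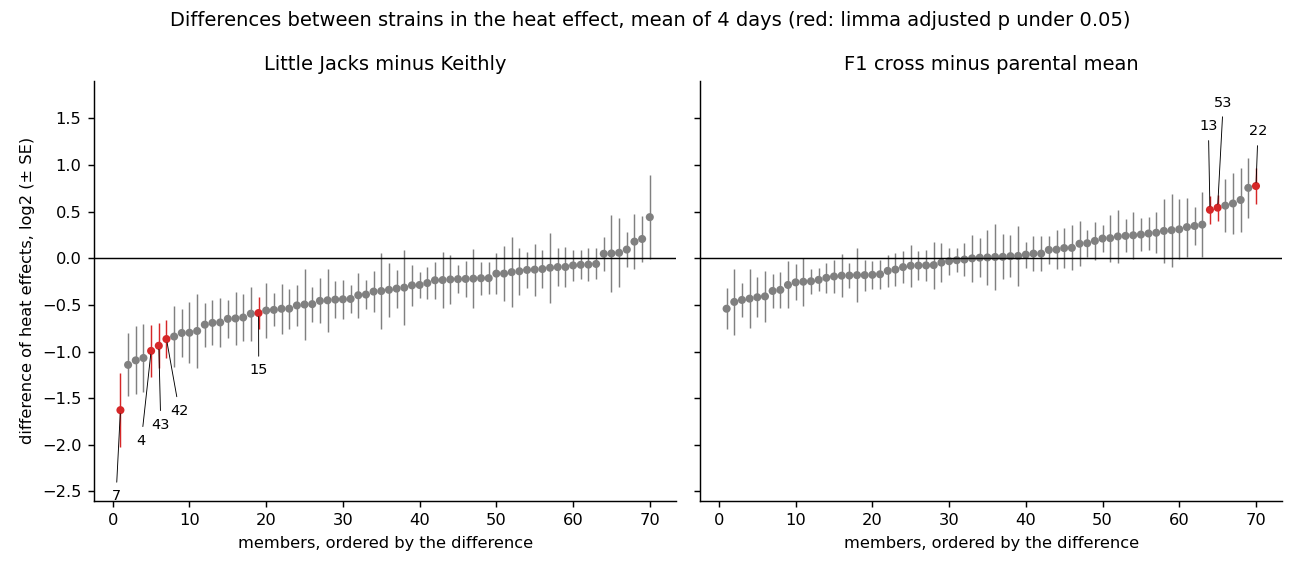
The difference in heat effect between strains, averaged over 4 days, is shown with its SE for the 70 members, ordered by size, for Little Jacks minus Keithly (left) and for the F1 cross minus the mean of both parental strains (right). Called members are red and carry their place by day 1 value; 5 lie below 0 on the left and 3 above 0 on the right.

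In the F1 cross the heat effect was set against the mean of both parental strains. The difference had a median of 0.01 over the members, 37 above 0 and 33 below, against a median of 0.03 over all features. Of the 70 members, 3 were called higher in the F1 cross and 0 lower, where 3.85% of all features were called higher and 4.34% lower. At an unadjusted p under 0.05 there were 6 members, a smaller share than the 21.0% of all features. edgeR called 3 members, all higher, where it called 4.25% of features higher and 6.49% lower. Without the 7 deviating libraries limma called 7 members, 4 higher and 3 lower, against 4.13% of features higher and 6.64% lower. With reads scaled to the column total the balance over all features turned, with 5.79% called higher and 2.14% lower, and 51 of 70 members lay above 0, of which 4 were called higher and 0 lower. The called ones were the 22nd by day 1 value (0.77, SE 0.19), the 53rd (0.54, SE 0.14) and the 13th (0.52, SE 0.15), with limma adjusted p-values of 0.00482, 0.00770 and 0.0192. The 22nd showed the difference most on day 3. It had 481.3, 335.3 and 378.3 at 28 °C in the F1 cross on day 3, against 8.07, 17.1 and 8.73 at 15 °C. In Little Jacks it had 230.6, 349.1 and 218.9 at 28 °C on day 3, against 23.1, 23.1 and 15.9 at 15 °C. In Keithly it had 401.8, 438.7 and 407.2 at 28 °C on day 3, against 30.2, 36.2 and 28.4 at 15 °C. The F1 values at 28 °C overlapped those of Keithly, and its 15 °C values included the lowest of the 3 strains.

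Whether the strains lost their heat effect at different rates could not be resolved. For the change from day 1 to day 28 in Little Jacks minus that in Keithly, limma called 0 of 70 members in either direction, and 0% of all features, and 4 members had an unadjusted p under 0.05, near the 5.47% of all features. edgeR called 0 members and 0% of features as well. The median difference was -0.47, with 58 of 70 members below 0, against a median of -0.14 over all features. This median depended on which libraries were kept. Without Little Jacks 28 °C day 28 replicate 3, a deviating library, it was -0.23 with 49 members below 0, against -0.17 over all features, and without the deviating Little Jacks 28 °C day 1 replicate 1 it was -0.72, against -0.15. It was -0.31 without Keithly 28 °C day 28 replicate 2 and -0.28 without Keithly 15 °C day 28 replicate 1. Without the 3 shallowest libraries it was -0.28, against 0.06 over all features. Without all 7 deviating libraries it was larger, at -0.58 with 58 of 70 members below 0, against -0.20 over all features. In that fit Keithly 15 °C day 28 rested on 2 libraries, which included the shallowest, replicate 1 at 0.276 M reads. By limma, 11 members then had an unadjusted p under 0.05, against 2085 of 23234 features, and 0 members were called. Single members were imprecise, as in g02206, whose fall was larger in Little Jacks by an estimate of -1.24 with an SE of 1.14, and in g01823, with 0.33 and an SE of 0.84.

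Between day 3 and day 7 no change of a member was called. The heat effect on day 7 minus that on day 3, averaged over strains, had a median of -0.24 and lay below 0 in 55 of 70 members, against a median of -0.03 over all features. limma called 0 members in either direction, where 0.0516% of all features were called higher and 0.0603% lower, and 14 members had an unadjusted p under 0.05, against 8.05% of all features. edgeR called 0 members, and 0.0732% of features in each direction. By limma's group means the difference was 0.03 (SE 0.34) for g01823 and -0.70 (SE 0.47) for g02206. By medians the mean heat effect of g01823 was 9.59 on day 3 and 9.82 on day 7.

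Levels at 15 °C were compared next. Little Jacks minus Keithly, with reads of the joined tables scaled together, had a median of -0.07 over the members and 0.05 over all features. limma called 0 members in either direction, where 0.0861% of all features were called higher and 0.112% lower, and 13 members had an unadjusted p under 0.05, against 9.27% of all features; no other tool was run on this comparison. g01823 differed by -0.20 (SE 0.21) and g02206 by -0.54 (SE 0.31).

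The 22 features that also had a heat effect of at least 1 in all 12 combinations but a smaller fall give the contrast on the other side of the rule. On days 1, 3, 7 and 28 the median heat effects were 4.51, 2.66, 2.47 and 1.95 in the 70 members, against 2.52, 1.86, 1.87 and 2.05 in these 22. The medians lay furthest apart on day 1 and closest on day 28. The rule split the sets by the fall between these days, so the contrast partly describes its outcome. The median 15 °C value was 15.2 in the members, against 13.2 in the 22. At the floor of the heat effect, the 3 members nearest to it had a lowest effect of 1.01, 1.02 and 1.02, and the 3 nearest features outside had 0.957, 0.954 and 0.946. At the floor of the fall, the nearest members fell by 1.00, 1.03 and 1.13, and the nearest features outside by 0.998, 0.962 and 0.870.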

How the data were processed

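Gill RNA was purified on columns, depleted of ribosomal RNA and made into libraries with a ScriptSeq kit, per the labels' protocols. CASAVA 1.8, Bowtie and edgeR were used, per the submitters' processing notes. No source used here names the reference transcriptome or the filters. The deposited unit is a signal, which the authors made per strain by dividing reads by an effective library size. Each column is whole multiples of one step, which gave back whole reads for 100% of values within 0.01 read; edgeR on these reads was an alternative. A floor of 3 reads equals 0.132 to 9.24 signal units, counting error only. The descriptions of the F1 day 1 samples at 28 °C name the Little Jacks table, while their columns stand in the F1 table; column names were followed.

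Values were taken as log2(value + 0.5) and tested with limma 3.58.1 (R 4.3.3, edgeR 4.0.16 for the alternative), with a mean for each of 24 groups, a trended spread and Benjamini-Hochberg adjustment over 23234 features; scripts were tested on simulated data. Levels at 15 °C used TMM factors over the joined tables. Members and lists were chosen with earlier results of these data known. The named features are the highest day 1 value and the largest fall. Of 25137 identifiers, 0 matched the reference table, so the planned heat shock and cell type lists, and the label of the tissue, could not be checked. Rows without an identifier hold no values.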

Additional observations from a re-analysis of the deposited data

Results flagged for a closer look

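For 8 members there was a heat effect that differed between strains by limma's test of the difference itself, averaged over 4 days. In Little Jacks minus Keithly the differences were -1.63 for the member 7th by day 1 value, -0.99 for the 4th, -0.94 for the 43rd, -0.87 for the 42nd and -0.59 for the 15th, all lower in Little Jacks. In the F1 cross minus the parental mean they were 0.77 for the 22nd, 0.54 for the 53rd and 0.52 for the 13th, all higher in the F1 cross. Over all features, 1.34% were called lower in Little Jacks and 3.85% higher in the F1 cross. The F1 count called higher, 3 of 70, lay near that last share, and this count does not set the members apart from other features. Both comparisons share the parental libraries. The deviating libraries include 3 warm Little Jacks libraries, 1 warm Keithly library and 1 cool Keithly library, and without them the 5 differences from Keithly were -1.51, -0.92, -0.82, -0.69 and -0.44 in the same order.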

How the results depend on the processing

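No paired analysis was possible because the numbers that end the column names match no label and only name the libraries. Of 70 members, the count called for Little Jacks minus Keithly was 5; it was 8 with a pseudocount of 5, 3 with reads scaled to the column total, 3 without the 7 deviating libraries and 3 to 8 with one library left out. It was 8 without Keithly 28 °C day 7 replicate 1 or Keithly 15 °C day 28 replicate 3. It was 3 without any one of 20 others: in Little Jacks at 28 °C day 1 replicate 1, day 3 replicates 1 and 3, day 7 replicate 3 and day 28 replicate 3, and at 15 °C each of day 1 and replicate 3 of days 3, 7 and 28; in Keithly at 28 °C replicates 2 and 3 of days 1 and 3 and replicate 2 of days 7 and 28, and at 15 °C day 1 replicate 2 and replicate 1 of days 3 and 7. The 15th and the 4th member lost their call in 30 and 25 of 72 such fits, and the highest adjusted p-values by limma were then 0.0870 and 0.0756. The calls over all features moved between these fits too, as given above. The count for the F1 cross minus the parental mean was 3; without the deviating libraries it was 7 (4 higher, 3 lower), and 3 to 5 with one library left out, the 5 without F1 15 °C day 3 replicate 3. For day 7 minus day 3 it was 0. It was 1 with a pseudocount of 5, where 15 of 23234 features were called higher and 30 lower. It was also 1 without the deviating libraries, where 16 features were called higher and 24 lower. It was 0 to 1 with one library left out (1 without Little Jacks 28 °C day 3 replicate 1 or day 7 replicate 2, F1 28 °C day 7 replicate 1, F1 15 °C day 3 replicate 3, F1 15 °C day 28 replicate 2 or 3, or Keithly 28 °C day 3 replicate 1). Without the first of these, 7 of all features were called higher and 13 lower. For the level at 15 °C the count of members was 0, but 1 without the deviating libraries. Over all 23234 features the calls then rose from 20 higher and 26 lower to 123 higher and 105 lower. For the change from day 1 to day 28 it was 0 under each alternative run. The rule kept 46 features with reads scaled to the column total, 52 to 79 under the other alternatives, and 60 to 74 with one library left out. Scaling to the column total moved the median of all features by more than 0.1 in the F1 comparison, to 0.19, where the members' median was also 0.19, and in the change from day 1 to day 28, to -0.29, where the members' median was -0.62. Over all features, edgeR called 767 higher and 473 lower in Little Jacks minus Keithly, where limma called 208 and 311. With a pseudocount of 5 the members' median heat effect was 2.16 on day 3 and 2.02 on day 7. Near-zero differences changed sign. For g01823 the difference of day 7 and day 3 was 0.03, -0.0014 without the 3 shallowest libraries, and -0.10 to 0.14 with one library left out. For g02206 the F1 difference was 0.01, -0.13 without those libraries, -0.075 by edgeR, and -0.19 to 0.25 with one library left out. The cause was not tested. The depth of the 3 shallowest libraries limits the low 15 °C values.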
